A study of Mus musculus with 7 samples.

Results

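The genes described here belong to the p53 pathway and its DNA damage targets. A list of 35 genes was taken, and each gene was read from the transcript cluster (the array's unit for 1 gene or transcript) whose only gene symbol was that gene. Of the 35 listed genes, 31 were measured in this way, among 30137 genes with such a cluster in the whole series. Trp53, the gene of p53 itself, Gdf15 and Fdxr had no cluster named by that symbol alone, and Pidd1 shared its cluster with another symbol, so these 4 were not analysed here.

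All samples were cultures of HM-1, a mouse ovarian cancer cell line, measured on Affymetrix Mouse Transcriptome 1.0 arrays. HM-1-shSnail cells carried 1 of 2 lentiviral short hairpins against Snai1, the gene of the transcription factor Snail, called sh1 (2 arrays) and sh2 (2 arrays). HM-1-control cells (3 arrays) carried a non-silencing GIPZ lentiviral hairpin, so both groups had been infected. The labels name no DNA-damaging agent, and do not say whether a line was a clone or a pool. The labels call the arrays of a group biological replicates without saying whether each was a separate infection, so the p-values measure the spread between these cultures only. The 2 hairpins are shown because every comparison rests on them, each copied as the gene target sequence given in the labels.

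sh1: agtttattgatattcaata

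sh2: tggttaatttatatactaa

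p53 is a transcription factor that is stabilised when DNA is damaged or when cells are stressed. It binds paired copies of a short motif near its target genes and induces cell cycle inhibitors, DNA repair proteins, death receptors and metabolic enzymes. One of its targets, Mdm2, is the ubiquitin ligase that marks p53 for degradation, which closes a feedback loop, and Mdm4 is the partner of Mdm2 that blocks p53 on promoters. Snail binds E-boxes, a hexamer motif, and acts mainly as a repressor.

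Values are log2 signals, and a difference is shSnail minus control on that scale. The Snai1 cluster itself gave 6.80, 6.55, 6.69 and 6.77 on the shSnail arrays (sh1 replicates 1 and 2, then sh2 replicates 1 and 2), against 6.61, 6.69 and 6.70 on the control arrays, a difference of 0.03 (limma, adjusted p = 0.85). Both groups overlapped, and all values lay below 7.97, the 95th percentile of the negative control probes (means over the arrays), so this cluster does not check the labels. Of the markers, Krt8, Krt18 and Krt19 were between 15.49 and 16.90 on all arrays, while Epcam and Cdh1 of the epithelial list and 4 of 4 ovarian surface and Mullerian markers (Wt1, Pax8, Muc16, Msln) lay below the negative control percentile. None of the 5 leukocyte, 4 endothelial and 4 fibroblast markers measured exceeded it, with summed log2 signals on shSnail and control arrays of 20.04 to 20.60 and 20.49 to 20.57 for leukocyte, 18.76 to 19.41 and 17.93 to 18.26 for endothelial, and 16.81 to 16.84 and 16.84 to 16.93 for fibroblast genes. The endothelial sums were set apart by Cdh5 alone, with 6.34, 6.37, 5.92 and 5.79 on shSnail arrays, against 5.12, 5.29 and 4.96 on control arrays (limma, adjusted p = 0.12), while Kdr and Tek had the same value on every array. The negative controls also differed between groups, with medians of 4.92 and 4.99 on sh1 arrays, 5.12 and 5.20 on sh2 arrays, and 4.83, 4.85 and 4.86 on control arrays. In bulk cultures, fewer cells that express a gene and less RNA per cell cannot be told apart.

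Among the 31 measured genes, Cdkn1a alone passed the test between HM-1-shSnail and HM-1-control cells, and it was lower. Mdm2 and Trp53inp1 had values in the same direction without passing, and 20 members, Ccng1 and Rps27l among them, differed from control by less than 0.1. Of the 31 genes, 9 lay below the negative control percentile on all arrays. All of these except Tigar were among the 20, and a change in them could not be told from background. The count was 1 lower and 0 higher at an adjusted p under 0.05 (limma with Benjamini-Hochberg adjustment over 65770 clusters), beside 0.432% of all clusters called lower and 0.21% called higher. At an unadjusted p under 0.05 there were 5 lower and 1 higher, against a background of 4.65% lower and 5.45% higher. A one-way analysis of variance with the same adjustment also called Cdkn1a and no other member. The median difference of the members was 0.01, against 0 for all clusters.

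**Figure D1:**
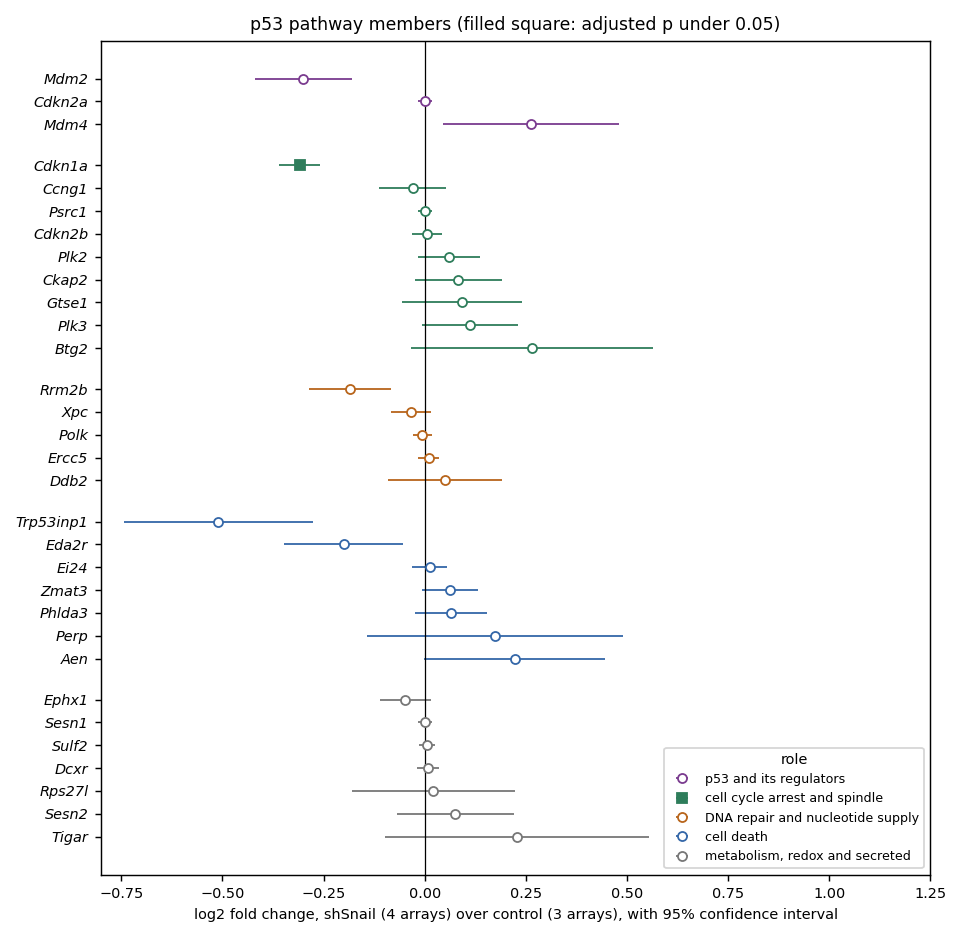
Difference in log2 signal of HM-1-shSnail (4 arrays) from HM-1-control cells (3 arrays) for each of the 31 measured genes, grouped by role, with its unadjusted 95% confidence interval. Cdkn1a, at -0.31, is the only filled square, and the symbols lie between -0.51 for Trp53inp1 and 0.27 for Btg2.

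In the regulators of p53, 3 of 4 listed genes were measured. Mdm2 gave 13.42 and 13.36 with sh1, 13.22 and 13.36 with sh2, and 13.67, 13.61 and 13.65 in control cells. Every shSnail array lay below every control array, and the spread among the shSnail arrays was wider than among the controls. The difference was -0.30 ± 0.05 (SE), that is 0.812 of the control level on the linear scale, and did not pass the test (limma, adjusted p = 0.092). Quantile normalization brought it past the threshold (difference -0.37, limma adjusted p = 0.010). Against the same control arrays, sh1 gave -0.25 (limma, adjusted p = 0.23) and sh2 gave -0.35 (limma, adjusted p = 0.059). The sh2 difference passed when either sh2 array was left out (limma, adjusted p from 0.038 to 0.19 over the 7 fits).

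Mdm4 had the opposite sign. Its values were 9.51 and 9.52 with sh1, 9.70 and 9.84 with sh2, and 9.34, 9.40 and 9.40 in control cells. The sh2 arrays were highest, the sh1 arrays lay between, and no shSnail array overlapped the controls. With sh2, Mdm4 rose by 0.39 ± 0.05 (SE; limma, adjusted p = 0.043), while sh1 gave 0.14 (limma, adjusted p = 0.57) and both hairpins together 0.26 (limma, adjusted p = 0.43). The difference of sh2 from sh1 was 0.25, with a 95% interval of 0.12 to 0.38 (limma, unadjusted p = 0.0046, adjusted p = 0.41), so a difference between the hairpins was not shown after adjustment. The sh2 call failed under 11 of 16 alternatives and held in 1 of the 7 fits that each left out an array, the one without sh2 replicate 1 (limma, adjusted p = 0.019), with adjusted p up to 0.15 in the other 6. Negative control probes were higher by a median of 0.27 with sh2 and 0.10 with sh1. With each array's negative control median as a covariate, the Mdm4 difference of both hairpins together was 0.02 ± 0.04 (SE; limma, adjusted p = 0.98), and that fit was not made for sh2 by itself. The covariate was higher on every shSnail array than on any control array, so such a fit cannot tell background from the hairpins.

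Cdkn2a, which encodes the CDK inhibitor p16 and the Mdm2 antagonist p19Arf, had the same value of 4.46 on all 7 arrays. That is below the negative control percentile. Its level could not be told from background.

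Cdkn1a encodes p21, the CDK inhibitor through which p53 arrests the cell cycle and a standard readout of p53 activity. Its gene, chr17:29090979-29100722 (GRCm38.p6, plus strand), gave 14.97 and 14.98 with sh1, 14.92 and 14.97 with sh2, and 15.26, 15.25 and 15.30 in control cells. The 4 shSnail arrays lay within a narrow band, and the gap to the lowest control array was several times the spread inside either group. Cdkn1a fell by 0.31 on the log2 scale (SE 0.02, 95% interval -0.36 to -0.26; 0.807 of the control level; limma, adjusted p = 0.0083). The sh1 difference was -0.29 (limma, adjusted p = 0.053) and the sh2 difference -0.32 (limma, adjusted p = 0.029). A comparison of sh2 with sh1 gave -0.03, with an interval of -0.10 to 0.04. When 1 array was left out, the sh2 call held in 3 of 7 fits, those without sh2 replicate 1, sh2 replicate 2 or control replicate 3 (limma, adjusted p 0.020 to 0.10 over the 7).

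The Cdkn1a call held in 6 of the 7 fits that left out an array and was lost without control replicate 1 (difference -0.31, limma adjusted p = 0.051). Its value moved little, but the call was also lost when each array's negative control median entered as a covariate (difference -0.30, limma adjusted p = 0.17). That median was higher on all 4 shSnail arrays than on any control array, so this fit cannot tell background from the hairpins. How the background bears on Cdkn1a was not tested.

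**Figure D2:**
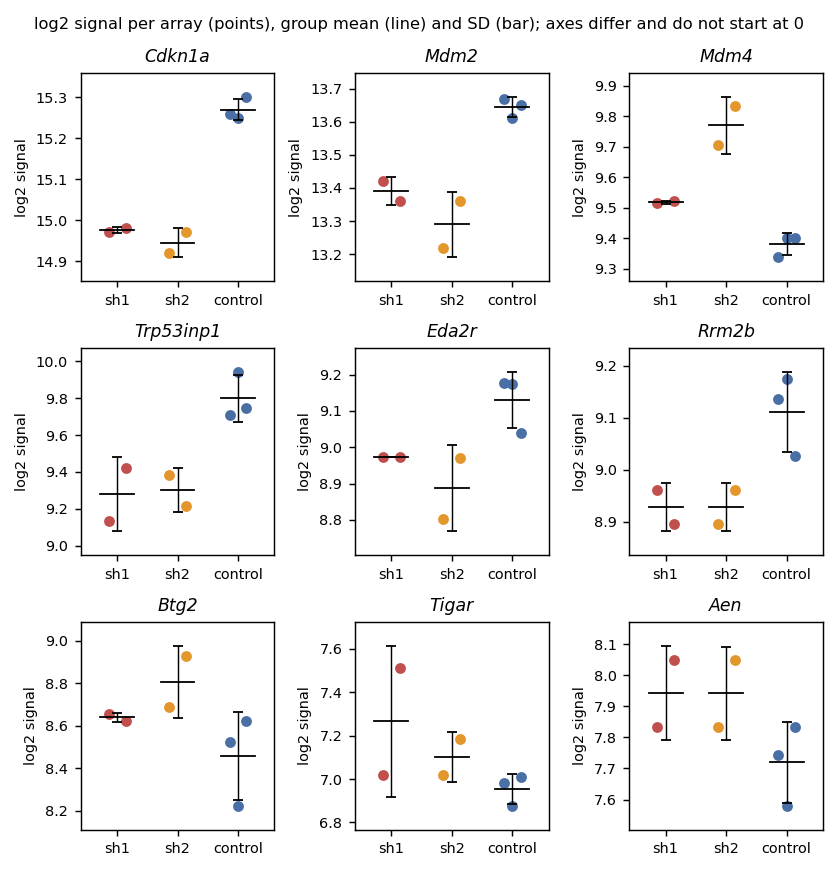
log2 signal on each array (points) with group mean (line) and SD (bar) for 9 genes, sh1 (2 arrays) and sh2 (2 arrays) left of control (3 arrays), with axes that differ between panels and do not start at 0. In Cdkn1a, Mdm2, Trp53inp1, Eda2r and Rrm2b every shSnail point is below every control point, in Mdm4 and Tigar every shSnail point is above, and in Btg2 and Aen the groups meet.

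RefSeq promoter windows (GRCm38.p6, 250 bases before to 50 after a start site) were held for 29 of the 35 listed genes. Trp53inp1, Rrm2b, Ddb2, Xpc, Perp and Zmat3 had no window and could not be searched. Cdkn1a has windows at 2 start sites, of which the upstream one coincides with the 5′ end of its annotated gene. The bases before each start are printed for Cdkn1a and for Mdm2, the gene of the p53 feedback loop, since these are the pair of p53 targets on which the results turn. Capitals mark matches to the p53 half-site decamer or to CACCTG or CAGGTG, the E-box forms that Snail prefers.

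Cdkn1a, upstream start, chr17:29090729-29090978, plus strand: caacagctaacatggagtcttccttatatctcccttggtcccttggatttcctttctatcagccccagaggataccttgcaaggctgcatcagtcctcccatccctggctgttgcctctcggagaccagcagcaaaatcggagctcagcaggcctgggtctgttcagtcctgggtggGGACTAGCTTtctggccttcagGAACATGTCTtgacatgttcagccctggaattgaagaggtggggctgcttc

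Cdkn1a, downstream start, chr17:29093519-29093768, plus strand: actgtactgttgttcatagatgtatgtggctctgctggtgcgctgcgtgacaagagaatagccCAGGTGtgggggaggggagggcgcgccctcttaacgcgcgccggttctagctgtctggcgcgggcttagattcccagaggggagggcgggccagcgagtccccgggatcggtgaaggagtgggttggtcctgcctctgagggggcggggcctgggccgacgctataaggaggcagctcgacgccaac

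Mdm2, chr10:117710759-117711008, minus strand: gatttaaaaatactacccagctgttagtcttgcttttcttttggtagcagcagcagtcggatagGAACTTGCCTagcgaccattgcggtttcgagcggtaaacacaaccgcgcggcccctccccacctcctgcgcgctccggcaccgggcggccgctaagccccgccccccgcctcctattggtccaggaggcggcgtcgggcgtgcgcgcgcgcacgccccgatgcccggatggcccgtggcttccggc

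The upstream Cdkn1a window held 2 half-site matches, beginning at -73 and -51 from the start site, and no CACCTG or CAGGTG. The downstream window held CAGGTG at -187 and no half-site match. In Mdm2 a single half-site match began at -186, and neither CACCTG nor CAGGTG was found. Both strands were searched, since the p53 half-site pattern and CANNTG are their own reverse complements and CACCTG is the complement of CAGGTG. Half-site matches were found in 12 of 40 member windows (30%), belonging to 11 genes, against 8.36% of all 32851 windows of that length. The list is made up largely of known p53 targets, so a higher share is no independent result. The 2 windows of Aen overlap and hold the same match, and Trp53, which was not measured, is among the 11 genes. CACCTG or CAGGTG, which are contained in CANNTG, occurred in 8 of 40 windows (20%) against 20.2% of all, and CANNTG, the general E-box, in 26 of 40 (65%) against 72.3%. Ccng1, Ckap2, Polk, Ei24, Aen, Sesn1, Rps27l and Gtse1 also carried a half-site match, and none of them passed the test. A match is a description of letters in the window, not evidence of binding.

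The other 8 arrest and spindle genes did not pass. Btg2, an antiproliferative p53 target, gave 8.65 and 8.62 with sh1, 8.69 and 8.93 with sh2, and 8.52, 8.22 and 8.62 in control cells. The highest control met the lowest shSnail value, and the difference was 0.27 ± 0.12 (SE; limma, adjusted p = 0.54), or 0.08 with the negative control covariate. Ccng1, which encodes cyclin G1 and is among the most regular p53 targets in mouse tissues, had 15.89, 15.91, 15.78 and 15.89 on shSnail arrays, against 15.91, 15.88 and 15.90 on control arrays. Its difference of -0.03 had a 95% interval of -0.11 to 0.05, which does not reach the size of the Cdkn1a difference. The stress kinases Plk2 (0.06) and Plk3 (0.11) and the spindle genes Gtse1 (0.09), whose protein carries p53 out of the nucleus, and Ckap2 (0.08) had small positive values. For Plk3 all shSnail arrays lay above the controls, although the closest arrays of the groups were equal to 2 decimals. Cdkn2b, which encodes the CDK inhibitor p15, and Psrc1, a microtubule regulator, were below the negative control percentile on all arrays, and Psrc1 had 1 value, 4.47, throughout.

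The group of DNA repair and nucleotide supply held 5 genes, and 0 of the 5 passed. Rrm2b encodes the p53-inducible subunit of ribonucleotide reductase. Its signals were 8.96 and 8.90 with sh1, 8.90 and 8.96 with sh2, and 9.14, 9.17 and 9.03 in control cells. The groups did not overlap, and the difference was -0.18 ± 0.04 (SE; limma, adjusted p = 0.20). Ddb2 and Xpc, which recognise ultraviolet lesions, gave 0.05 and -0.03, and Ercc5, a repair endonuclease, gave 0.01. Polk, a translesion polymerase, gave -0.01. Of these, Ddb2, Polk and Ercc5 repeated the same value on most arrays, and Xpc lay below the negative control percentile on all arrays.

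Cell death genes were measured for 7 of 8 listed, and 0 passed. Trp53inp1 encodes a nuclear protein that assists p53 in inducing death genes and takes part in autophagy. It gave 9.14 and 9.42 with sh1, 9.38 and 9.22 with sh2, and 9.71, 9.95 and 9.75 in control cells. All shSnail values were below all control values, but each group spanned over 0.2. The difference was -0.51 ± 0.09 (SE; 0.702 of the control level; limma, adjusted p = 0.13), the furthest from 0 of any member, with -0.52 for sh1 and -0.50 for sh2. Eda2r, a p53-induced receptor of the TNF receptor family, had 8.97 and 8.97 with sh1, 8.80 and 8.97 with sh2, and 9.18, 9.17 and 9.04 in control cells. Here too the groups were apart, with a difference of -0.20 ± 0.06 (SE; limma, adjusted p = 0.35).

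Aen, a p53-induced exonuclease, gave 7.84 and 8.05 with sh1, 7.84 and 8.05 with sh2, and 7.74, 7.58 and 7.84 in control cells. Its groups met at a shared value, and the difference was 0.22 (limma, adjusted p = 0.50). Perp, a desmosomal membrane protein linked to p53-dependent death, had a difference of 0.17 and a 95% interval of -0.14 to 0.49, and its shSnail arrays ran from 7.87 to 8.40. Phlda3, an inhibitor of Akt, gave 0.07, Zmat3, an RNA-binding splicing regulator, 0.06, and Ei24, a membrane protein of the endoplasmic reticulum, 0.01. Zmat3 lay below the negative control percentile on all arrays.

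The metabolic, redox and secreted group had 7 of 9 genes measured, and 0 passed. Tigar, which lowers glycolytic flux, gave 7.02 and 7.51 with sh1, 7.02 and 7.18 with sh2, and 6.98, 6.88 and 7.01 in control cells. Although no array overlapped, the lowest shSnail arrays nearly met the highest control and all values were below the negative control percentile (difference 0.23, limma adjusted p = 0.62). Sesn2, a sensor of leucine that restrains mTORC1, gave 0.08, and its relative Sesn1 had 7.24 on all 7 arrays, below the negative control percentile. Rps27l, a ribosomal protein induced by p53, had a difference of 0.02, and Ephx1, an epoxide hydrolase, -0.05. Dcxr, a carbonyl reductase, and Sulf2, a secreted sulfatase, gave 0.01 each at signals below the negative control percentile.

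The members thus fell into 5 whose shSnail arrays were all below the controls (Cdkn1a, Mdm2, Trp53inp1, Rrm2b and Eda2r), 3 whose shSnail arrays were all above (Mdm4, Plk3 and Tigar) and 23 that overlapped. Over all clusters, 4.01% lay entirely below and 5.08% entirely above. Many clusters carry no signal, so the same count was taken over those above the negative control percentile on all 7 arrays. This left 19 members, with 5 below (26.3%) and 2 above (10.5%), beside 10.9% below and 15.5% above among 10424 clusters. The 5 below are a small number, and no test was made of the list.

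Each hairpin was also set against the 3 control arrays, which both comparisons share. With sh1, 0 members were called lower and 0 higher, where 0.0821% of clusters were called lower and 0.0517% higher. Before adjustment, at p under 0.05, sh1 had 4 members lower and 1 higher, where 3.43% of clusters were lower and 3.91% higher. With sh2, Cdkn1a was called lower and Mdm4 higher, where the background was 0.477% lower and 0.809% higher. Between sh2 and sh1, 0 members and 0% of clusters were called, and at an unadjusted p under 0.05 1 member, Mdm4, stood beside 6.01% of clusters. In Trp53inp1, Rrm2b and Aen the values for the 2 hairpins were within 0.03 of each other, whereas in Perp sh1 gave 0.29 and sh2 0.05, a difference of -0.24 for sh2 from sh1 (limma, adjusted p = 0.80).

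**Figure D3:**
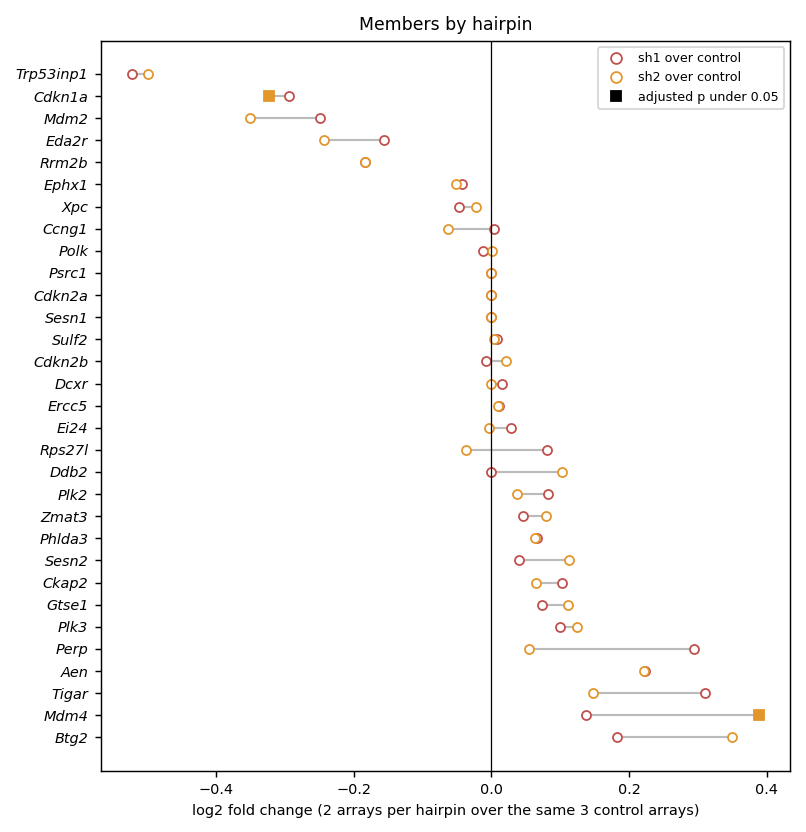
Difference in log2 signal from HM-1-control cells (3 arrays, shared) for sh1 (2 arrays) and sh2 (2 arrays), a row for each of the 31 genes ordered by the value of both hairpins together. Filled squares mark Cdkn1a with sh2 (-0.32) and Mdm4 with sh2 (0.39), and the 5 rows at the top, Trp53inp1 to Rrm2b, lie left of 0 for both hairpins.

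Beyond the members, 6 further lists of the pathway held 121 genes, of which 112 were measured. With the cluster of highest mean for each gene, 3 were called lower in HM-1-shSnail cells and 0 higher, all 3 in the list of other p53 targets. Of all clusters, 0.432% were called lower and 0.21% higher. The rule of highest mean read Fas, the death receptor gene on chromosome 19, from a cluster numbered to chromosome 17. With the Fas cluster of chromosome 19 the count was 4 lower and 0 higher. Krüppel-like factor 4 (Klf4), a transcription factor that can induce Cdkn1a together with p53, gave 7.51 and 7.53 with sh1, 7.11 and 7.30 with sh2, and 8.90, 8.72 and 8.76 in control cells. The shSnail arrays were over 1 log2 unit lower, and only the control arrays exceeded the negative control percentile. Klf4 was 1.78-fold lower if shSnail arrays are taken at that percentile of 7.97 (measured difference -1.43, SE 0.12; limma, adjusted p = 0.015). The same percentile within each array was 8.07 and 8.05 with sh1, 8.39 and 8.35 with sh2, and 7.82, 7.97 and 7.90 in control cells. Taken at the shSnail arrays' own percentiles the fold would be smaller, so 1.78 is not a lower bound. Klf4 was called with each hairpin as well. Neither hairpin's call of Klf4 held under every alternative.

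Casp6, an executioner caspase, gave 10.58 and 10.68 with sh1, 10.38 and 10.41 with sh2, and 11.21, 11.20 and 11.23 in control cells. The groups were well apart, and the sh2 arrays lay below the sh1 arrays. Casp6 fell by 0.70 (SE 0.08; limma, adjusted p = 0.038), with calls for sh1 (-0.58) and sh2 (-0.82), neither of which held under every alternative. Bcl6, a transcriptional repressor that silences the p53 gene in germinal centre B cells, was called lower (limma, adjusted p = 0.039), with 6.67, 6.72, 6.77 and 6.75 on shSnail arrays, against 7.61, 7.62 and 7.28 on control arrays, all below the negative control percentile, so that no fold is given. When 1 array was left out, the call of Klf4 held in 2 of 7 fits, those without sh1 replicate 2 or sh2 replicate 1 (limma, adjusted p 0.025 to 0.081 over the 7). The call of Casp6 held in 1 of 7, without sh1 replicate 2 (0.050 to 0.16), and that of Bcl6 in 1 of 7, without control replicate 3 (0.011 to 0.15).

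The 2 clusters that carry the symbol Fas differed in sign. The one on chromosome 19, where RefSeq places the gene (chr19:34290647-34327775), gave 6.25 and 6.26 with sh1, 6.009 and 6.002 with sh2, and 7.53, 7.75 and 7.34 in control cells. The groups were apart by over 1 log2 unit, all values were below the negative control percentile, and the cluster was called lower (limma, adjusted p = 0.017). With 1 array left out the call held in 1 of 7 fits, without control replicate 3 (limma, adjusted p 0.039 to 0.090). The cluster numbered to chromosome 17 gave 9.40 and 9.98 with sh1, 9.74 and 10.25 with sh2, and 9.41, 8.73 and 9.58 in control cells (difference 0.60; limma, adjusted p = 0.56), and its groups overlapped. In all other genes of these lists and in all members the cluster number matched the chromosome of the gene. Apart from Klf4, Casp6, Bcl6 and Fas, the measured targets of this list, including the death genes Bbc3 and Pmaip1 and the arrest genes Gadd45a and Sfn, did not pass. Bbc3, Pmaip1, Gadd45a and Sfn lay below the negative control percentile on all arrays, so their levels could not be told from background. With the clusters of highest mean, 18 of the 26 measured genes of this list lay below it on all arrays.

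The list of cell cycle genes that are repressed downstream of p21 had 18 of 20 genes measured and 0 called by limma. At an unadjusted p under 0.05 (limma), 0 were lower and 7 higher, beside 4.65% and 5.45% of all clusters. The median difference of the list was 0.12, and 8 genes had all shSnail arrays above all controls. Among the 17 above the negative control percentile on all arrays these 8 made 47.1%, beside 15.5% of such clusters, with 0 of the 17 entirely below beside 10.9%. Aurka, the mitotic kinase aurora A, gave 13.01 and 13.07 with sh1, 12.88 and 13.08 with sh2, and 12.58, 12.72 and 12.53 in control cells (difference 0.40; limma, adjusted p = 0.11). Cdc20, the activator of the anaphase-promoting complex, had a difference of 0.39 (limma, adjusted p = 0.059), and Bub1b, a spindle checkpoint kinase, 0.29 (limma, adjusted p = 0.078). These genes stood above control while Cdkn1a was below it, and whether one followed from the other was not tested.

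**Figure D4:**
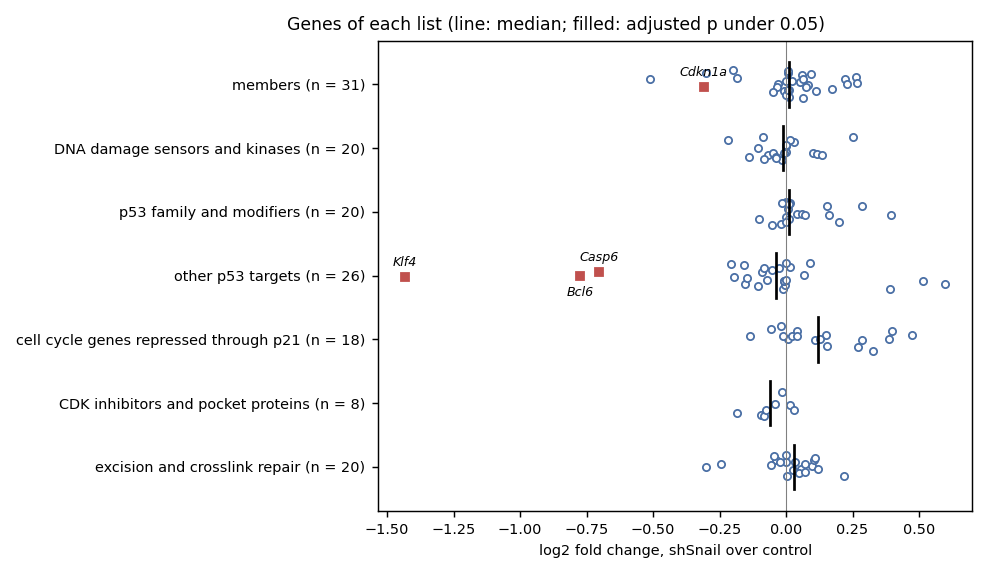
Difference in log2 signal of HM-1-shSnail from HM-1-control cells for each gene of the members and of the 6 further lists, with the median of each list as a black line. The 4 filled squares are Cdkn1a among the members and Klf4, Bcl6 and Casp6 among other p53 targets, and the cell cycle list has a median of 0.12. Fas is drawn from its chromosome 17 cluster, at 0.60.

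In the remaining lists, none of the 68 measured genes was called by limma in HM-1-shSnail cells. At an unadjusted p under 0.05 (limma), 5 were lower and 10 higher. Of all clusters, many of which carry no signal, 4.65% were lower and 5.45% higher in this way. In the p53 family and modifiers, 20 of 20 genes were measured, and in the comparison of sh2 with control 2 were called, both higher. Of all clusters, 0.809% were called higher with sh2. Hipk2, a kinase that phosphorylates p53, had 11.48 and 11.49 with sh1, 11.61 and 11.63 with sh2, and 11.19, 11.20 and 11.09 in control cells. Both hairpins were above the controls, and Hipk2 rose with sh2 by 0.46 (limma, adjusted p = 0.030), while both hairpins together gave 0.39 (limma, adjusted p = 0.053). The acetyltransferase Ep300 rose with sh2 by 0.37 (limma, adjusted p = 0.040). With 1 array left out, each of these calls held in 2 of 7 fits (limma, adjusted p 0.026 to 0.12 for Hipk2 and 0.028 to 0.14 for Ep300).

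Among the DNA damage sensors and kinases, 20 of 21 genes were measured. The kinase gene Atm gave 9.37 and 9.43 with sh1, 9.52 and 9.55 with sh2, and 9.19, 9.18 and 9.28 in control cells (difference 0.25; limma, adjusted p = 0.17), with no overlap between groups. Its substrate kinase Chek2 gave a difference of -0.22 (limma, adjusted p = 0.21). Rbl1, the pocket protein p107 in the list of 8 CDK inhibitors and pocket proteins, fell with sh2 by 0.23 (limma, adjusted p = 0.038), a call that held in 1 of 7 such fits (0.041 to 0.13). In the excision and crosslink repair list (20 of 22 measured) Fancd2, of the Fanconi anaemia pathway, gave -0.30 (limma, adjusted p = 0.17).

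**Figure D5:**
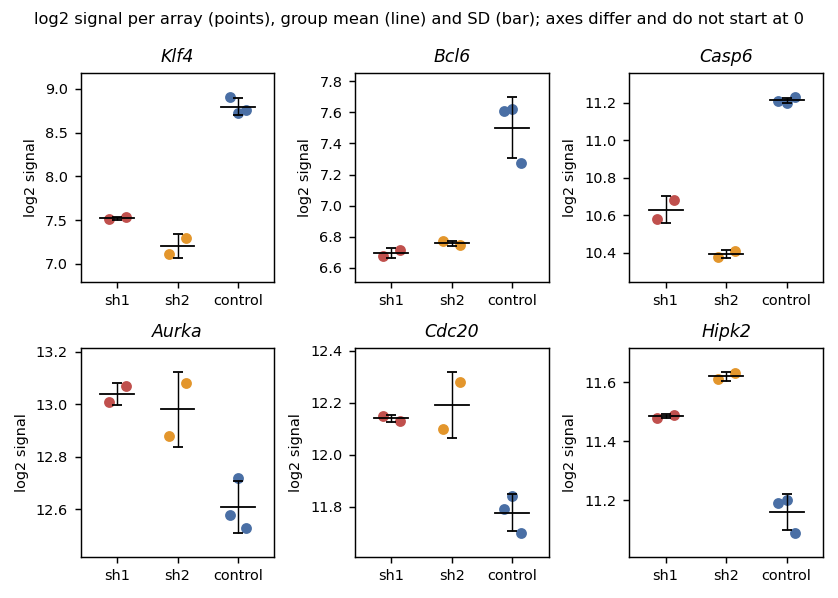
log2 signal on each array (points) with group mean (line) and SD (bar) for 6 genes of the further lists, sh1 and sh2 (2 arrays each) left of control (3 arrays), with axes that differ between panels and do not start at 0. Klf4, Bcl6 and Casp6 lie below control on all 4 shSnail arrays, and Aurka, Cdc20 and Hipk2 lie above it.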

How the data were processed

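Total RNA of 7 HM-1 cultures was hybridized to Affymetrix Mouse Transcriptome 1.0 arrays. The authors deposited log2 signals per transcript cluster, made with Affymetrix Expression Console; its version, and how background was corrected and probes summarized, is not given in the sources used here. No count or depth exists, and the number of arrays limits the precision. Symbols came from the platform annotation (30473 clusters with 1 symbol, 2176 with several, 33121 with none), and coordinates from RefSeq GRCm38.p6. Of all clusters, 4.59% held 1 value on all 7 arrays and 79.9% at least 2 equal values. Replicates correlated at 0.9977 to 0.9985. Differences were fitted with limma 3.58.1 in R 4.3.3 (lmFit, eBayes; 65770 clusters; control probes left out), with 2 groups for shSnail against control and 3 groups for the hairpins, a Benjamini-Hochberg adjusted p under 0.05 and no fold minimum. The scripts were tested on simulated data. Every member was named, with values per array for called genes, the 5 other largest differences and Cdkn2a, and called genes of the other lists; Rrm2b, Eda2r, Ccng1 and the uncalled genes of the other lists were picked after seeing their values. The members and lists were chosen with earlier results of these data known. Alternatives covered normalization, filters, variance models, the methods' analysis of variance and each array left out.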

Additional observations from a re-analysis of the deposited data

Results flagged for a closer look

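In 10 of the 28 members whose shSnail arrays differed among themselves, a single shSnail array was separated from its 3 counterparts by more than Dixon's 95% critical value, which chance exceeds in about 1 of 20 groups. In several of these the other 3 arrays carried equal values, so that any deviation is flagged. The values standing apart were 8.29 for Ddb2 (sh2 replicate 2, the others at 8.09), 12.79 for Plk2 (sh2 replicate 1, others 12.87) and 8.80 for Eda2r (sh2 replicate 1, others 8.97). Cdkn2b had 4.534 (others 4.485 to 4.492) and Zmat3 7.266 (others 7.198) on sh2 replicate 2. Xpc had 7.744 (others 7.793 to 7.8), Polk 10.07 (others 10.09) and Sulf2 5.006 (others 4.996) on sh1 replicate 1. Ercc5 had 8.511 (others 8.509) and Dcxr 6.825 (others 6.794) on sh1 replicate 2. Several of these gaps, that of Ercc5 above all, were very small. None of these 10 genes was called in the comparison of shSnail with control.

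The negative control probes, which are outside the genes compared, had signals higher by a median of 0.18 in shSnail than in control arrays (0.10 with sh1, 0.27 with sh2).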

How the results depend on the processing

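No value of the single genes followed here reversed its direction. Fas was not among them, and its 2 clusters differed in sign. For the single genes followed, 519 of 650 values under alternatives stayed on the same side of the threshold. Another 111 no longer passed it and 20 newly did. Only results called above can lose a call, while the 519 include many that were never called. The shSnail call was lost under 4 of 18 alternatives for Cdkn1a, 8 for Klf4, 10 for Casp6 and 11 for Bcl6. Calls of a single hairpin were lost under 5 (Casp6 with sh2) to 12 (Rbl1 with sh2) of 16. The share of all clusters called under each alternative is not given here. A change in the counts below can therefore not be told from a change over all clusters. With quantile normalization, the members called lower were 2 in shSnail (Cdkn1a and Mdm2), 1 in sh1 (Cdkn1a) and 2 in sh2, and the other lists had 5 lower and 3 higher. With the replicate number as a block, 0 members were lower in shSnail (Cdkn1a, limma adjusted p = 0.11), 0 lower and 0 higher in sh2, and 0 genes of the other lists lower. Deviations of same-numbered arrays had r = 0.157 between hairpins and -0.21 to -0.07 with control. With 2 arrays per hairpin the 2 deviations mirror each other, so these values cannot decide whether same-numbered arrays share a batch. With the negative control median as a covariate, 0 members and 0 genes of the other lists were lower in shSnail, but this covariate separated the groups completely. The filter at the 40th percentile gave 1 lower member in sh1 and 2 in sh2, and 3 genes of the other lists higher (Hipk2, Cdc20 and Bub1b). With clusters of 1 symbol, 1 member was lower in sh1 and 3 other genes were higher. Array weights gave 1 member lower in sh1, 0 higher in sh2 and 1 other gene higher. A 3-group mean gave 1 other gene higher, centring on the median 4, and eBayes with trend and robust 0 members higher in sh2. Analysis of variance, Benjamini-Hochberg adjusted, called 1 member lower in sh1 (Cdkn2b, 4.485 on both sh1 arrays and 4.492 on all control arrays, below background), 0 lower and 0 higher in sh2, and 0 other genes lower. At the methods' threshold, 0 members were called lower in shSnail, 0 lower and 0 higher in sh2, and 1 other gene (Klf4) lower. Leaving out 1 array each gave 0 to 1 members lower in shSnail, 0 to 2 lower and 0 to 2 higher in sh2, 0 to 2 between hairpins (Mdm4 and Ddb2, without sh2 replicate 1), and 0 to 2 other genes lower. The Fas cluster on the gene's own chromosome, chosen after seeing the data, gave 4 other genes lower. The causes were not tested. Clusters below the negative control percentile, 9 members on all arrays, limit what could be seen.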
